A study of Mus musculus with 24 samples.

Results

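The comparison of *Chrebp* silencing with control silencing rested on 8 of the 24 libraries of the series, 4 labelled CHREBP and 4 labelled CON, taken by their labels. All came from AML-12 cells, an established line of hepatocytes from a mouse carrying a transforming growth factor alpha transgene, and all had received 0.25 mM palmitate, a saturated fatty acid used to model steatosis in culture. CHREBP cells were transfected with 100 nM of an endoribonuclease-prepared small interfering RNA (esiRNA), a mixture of short RNAs cut from a long double strand, against *Chrebp*. CON cells received 200 nM of an esiRNA against *Egfp*, a jellyfish gene that mouse cells lack, and RNA was collected 24 hours after transfection in both groups. The 2 groups therefore differed in the amount of esiRNA as well as in its target, and the library names put CON in column 2 and CHREBP in column 3, so that target, amount and column cannot be told apart here. Expression was read by Bulk RNA Barcoding and sequencing (BRB-seq), which sequences the 3′ portion of each mRNA. Nothing in the labels says that the 4 libraries of a group came from separate cultures, so the p values measure the spread between these libraries, which may be technical.

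Carbohydrate response element binding protein (ChREBP), encoded by *Mlxipl*, is a glucose-responsive transcription factor that pairs with Mlx and drives glycolytic and lipogenic genes, such as that of liver pyruvate kinase, and the gene of the thioredoxin-interacting protein. The type I interferon response works through another set of factors. Cytosolic sensors of RNA or DNA induce interferon, interferon binds its receptor, and a complex of STAT proteins and Irf9 then binds interferon-stimulated response elements in the promoters of many antiviral genes. Hepatocytes carry both systems. The genes were therefore described inside and outside 11 lists of interferon-related genes, together with 20 lists of metabolic, stress and growth genes.

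The 8 libraries held 6512750 to 11237474 gene counts, and the difference in total count between the groups gave an exact 2-sided permutation p of 0.543 (n = 4 per group). All 12 hepatocyte markers were tested and 0 passed the test (DESeq2). The log2 fold change was below 0 for 10 of them (median -0.12), and 4 had an unadjusted p under 0.05, all 4 lower. Of 12 leukocyte markers, 8 had at most 3 counts in every library, 6 of them 0, and the summed level of the list ran from 79.6 to 87.7 CPM (counts scaled to an equal library total) in CON and from 83.2 to 91.0 CPM in CHREBP. Stellate cell markers reached at most 3 counts for 8 of 10 and endothelial markers for 7 of 9. Reads that were not aligned made up 26.7% to 27.5% of a CON library and 25.8% to 26.7% of a CHREBP library (difference -0.705 percentage points, exact 2-sided permutation p = 0.0286, the smallest that 4 against 4 libraries can give). That call was lost without CON replicate 3 (p = 0.0571, exact permutation), CON replicate 4 (p = 0.0571, exact permutation) or CHREBP replicate 2 (p = 0.0857, exact permutation). The libraries of a group were not alike in their interferon genes. The genes of the interferon lists held 0.922% of the counts in CON replicate 1 and 1.09% to 1.30% in the other CON libraries, against 3.25% in CHREBP replicate 1 and 2.08% to 2.35% in the other CHREBP libraries. PAL cells, which had palmitate and no esiRNA, stood at 0.830% to 0.841%.

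The targeted transcript was reported first. *Mlxipl* (chr5:135089890-135138382, plus strand, GRCm38) had normalized counts of 39.1, 30.8, 45.1 and 29.4 in CON and of 23.6, 33.2, 22.5 and 25.8 in CHREBP, a normalized count being a raw count divided by the size factor of its library. The groups overlapped, because CHREBP replicate 2 lay above 2 of the CON libraries. The log2 fold change was -0.46 (SE 0.28), with an adjusted p (*Padj*, DESeq2, Benjamini-Hochberg over the 11999 genes left by independent filtering) of 0.593 and an exact 2-sided permutation p of 0.0857 (n = 4 per group). The list of ChREBP, its partners and direct targets gave no call either. Of the 16 tested genes of that list, 0 were higher and 0 were lower (DESeq2; 2 had an unadjusted p under 0.05, and edgeR called 0), with a median log2 fold change of -0.06 beside -0.0037 over all tested genes. Most lipogenic genes stood in another list, of fatty acid and triglyceride synthesis, in which *Scd1* and *Scd2* were called lower. *Txnip*, which restrains glucose uptake, had 1796, 1799, 1843 and 1955 normalized counts in CON and 1615, 1467, 1995 and 1667 in CHREBP (log2 fold change -0.13, SE 0.08). *Pklr*, which encodes liver pyruvate kinase, had 334, 297, 388 and 265 in CON and 395, 336, 314 and 382 in CHREBP (0.15, SE 0.12). *Klf10* gave a log2 fold change of 0.01 (SE 0.11). These 3 genes overlapped between the groups.

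Across the transcriptome, genes are called differentially expressed (DEGs) where *Padj* was under 0.1. Of 13883 genes tested, including 1884 that independent filtering left without a *Padj* and that were not called, 368 were higher in CHREBP, which is 2.65% of them, and 107 were lower, which is 0.771%. The rises and the falls differed in size. Among the DEGs, 154 rises were at least 2-fold, 112 of them in the interferon lists, whereas 7 falls were. None of the 95 falls whose mean normalized count was 50 or more reached 2-fold, and the farthest of them was -0.77 on the log2 scale. The interferon lists held 148 of the 368 higher genes and 0 of the lower ones. Outside the lists, 220 genes were higher (1.61% of the 13678 tested there) and 107 were lower (0.782%). The median log2 fold change was 1.81 for the DEGs higher inside the lists, 0.47 for those higher outside, and -0.35 for the lower DEGs. The groups did not overlap for 142 of the 148, 195 of the 220 and 98 of the 107 genes, beside 8.52% of all tested genes. Genes with separated groups are more readily called, so these counts are a description. With CHREBP and CON fitted without the other groups, 184 genes were lower. Single libraries bore on 2 of the counts. The number higher outside the lists was 136 without CHREBP replicate 1, and the number lower was 56 without CON replicate 4, 69 without CHREBP replicate 1 and 71 without CON replicate 1. With CON replicate 1 and CHREBP replicate 1 left out together, 118 list genes, 88 other genes and 41 lower genes were called.

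**Figure D1:**
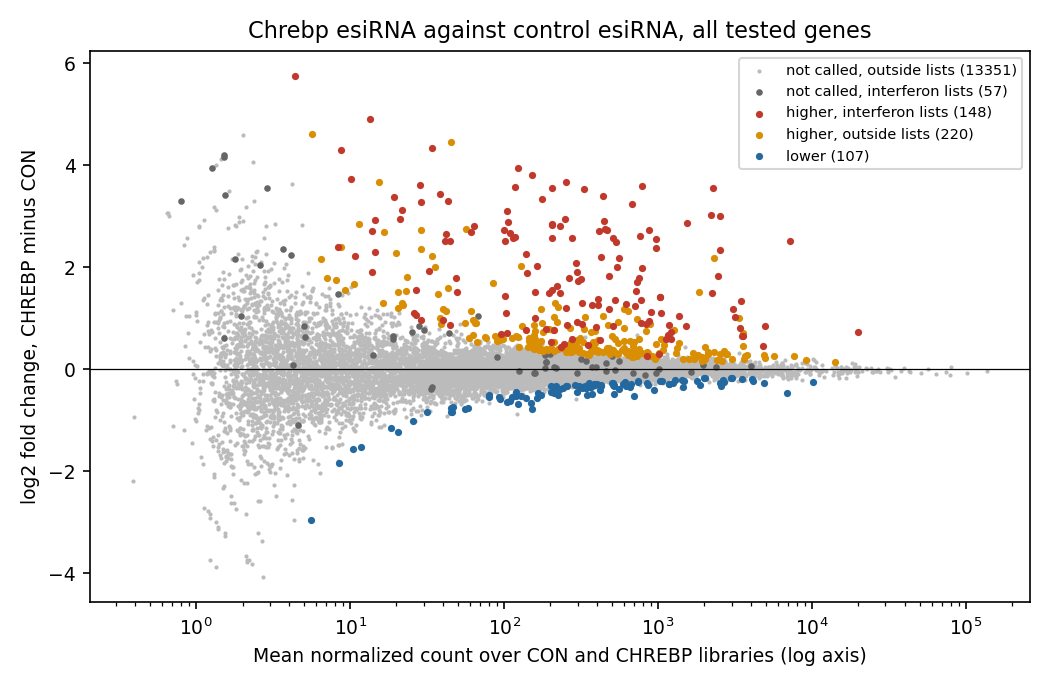
The plot sets the log2 fold change of each tested gene (CHREBP minus CON, vertical axis) against its mean normalized count over the 8 libraries (horizontal log axis). Red points are the 148 DEGs higher inside the interferon lists, gold points the 220 higher outside them and blue points the 107 lower DEGs, none of which lies below -0.77 where the mean count is 50 or more.

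Inside the interferon lists, 148 of the 205 tested genes (72.2%) were higher, with a median log2 fold change of 1.41 over all 205. The interferon genes themselves were close to the detection limit. *Ifnb1*, which encodes interferon beta, had raw counts of 0, 4, 1 and 0 in CON and of 8, 5, 2 and 2 in CHREBP and was not called (log2 fold change 2.05, SE 0.95, unadjusted p = 0.0307, *Padj* = 0.339, DESeq2). It was the 1 interferon gene of 20 with enough counts to be tested.

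In the list of RNA and DNA sensors and adaptors, 11 of 18 tested genes were higher, not all of them sensors. *Ifih1*, which encodes the sensor of long double-stranded RNA MDA5, had 67.3, 151, 168 and 112 normalized counts in CON and 654, 446, 379 and 388 in CHREBP (log2 fold change 1.90, SE 0.32, *Padj* = 6.71e-07). *Tlr3*, which encodes the endosomal receptor for double-stranded RNA, gave 2.08 (SE 0.36), and *Adar*, which edits adenosine in double-stranded RNA, gave 1.28 (SE 0.15). CHREBP replicate 1 was the highest library for all 3 of these genes. The adaptor gene *Mavs* was not called (-0.03, SE 0.16). Among receptors, STATs and IRFs, 12 of 23 were higher. *Stat2* had 195, 437, 402 and 340.1 normalized counts in CON and 1543, 1062, 884 and 1009 in CHREBP (1.71, SE 0.23, *Padj* = 1.41e-10). *Irf1* gave 0.86 (SE 0.13) and *Nmi*, which encodes a partner of STAT proteins, gave 1.20 (SE 0.15). The receptor genes *Ifnar1* and *Ifnar2* were not called (0.14, SE 0.13, and 0.05, SE 0.10).

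The 8 largest rises among called list genes averaging 50 or more normalized counts, without overlap between the groups, were mostly effectors. *Oas3* encodes an enzyme that makes the second messenger of RNase L. It had normalized counts of 0, 24.7, 27.6 and 7.06 in CON and of 468, 191, 124 and 137 in CHREBP (log2 fold change 3.94, SE 0.83, *Padj* = 1.86e-04). *Rsad2*, which encodes the antiviral radical enzyme viperin, had 10.9, 169, 224 and 74.1 in CON and 2619, 1305, 1013 and 878 in CHREBP (3.60, SE 0.66). *Cxcl10*, a chemokine that draws T cells, had 55.5, 526, 604 and 246 in CON and 7334, 3763, 3229 and 2449 in CHREBP (3.55, SE 0.57). For these 3 genes every CHREBP library lay above every CON library, which the rule for naming them required. In each of them CON replicate 1 was lowest and CHREBP replicate 1 highest. *Cxcl11* (3.67, SE 0.65), annotated as a polymorphic pseudogene, *Oas1a* (3.58, SE 0.61), *Ifitm3* (3.56, SE 0.52), which blocks viral entry, and *Trim30a* (3.53, SE 0.77) made up these 8 together with *Iigp1* (3.82, SE 1.05). The *Iigp1* call was lost without CHREBP replicate 1 (log2 fold change 3.29, *Padj* = 0.142). The Oas genes are close paralogs, *Gbp4* overlaps *Gbp8* and *Gbp9*, *Irgm2* overlaps *Igtp*, and *Cxcl10* and *Cxcl11* overlap *Art3* on the other strand, so reads of one may have been counted for another. In bulk RNA, more cells expressing a gene and more RNA per cell cannot be told apart.

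Of the 98 tested antiviral effectors, 69 were higher and 0 lower, with a median log2 fold change of 1.25. By family, 8 of 9 genes of the OAS and RNase L list were higher, 6 of 6 of the ISG15 conjugation system, 8 of 9 immunity-related GTPases, 8 of 9 guanylate-binding proteins, 7 of 7 antiviral PARPs and 4 of 4 interferon-induced chemokines. *Isg15*, the ubiquitin-like modifier, had few counts in this 3′ assay, with 0, 3.42, 8.35 and 1.18 normalized counts in CON and 67.3, 24.4, 24.2 and 25.8 in CHREBP (3.37, SE 0.53). *Mov10*, which encodes an RNA helicase, had 385, 400.0, 341 and 341 in CON and 694, 602, 653 and 683 in CHREBP (0.84, SE 0.10, *Padj* = 9.40e-15). Of the MHC class I presentation genes, 17 of 23 were higher. *B2m*, the light chain of MHC class I, had 12516, 15672, 16090.1 and 15080.4 in CON and 29496, 22927, 22782 and 23667 in CHREBP (0.74, SE 0.10). *Psmb9*, an immunoproteasome subunit, differed more (2.58, SE 0.36).

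**Figure D2:**
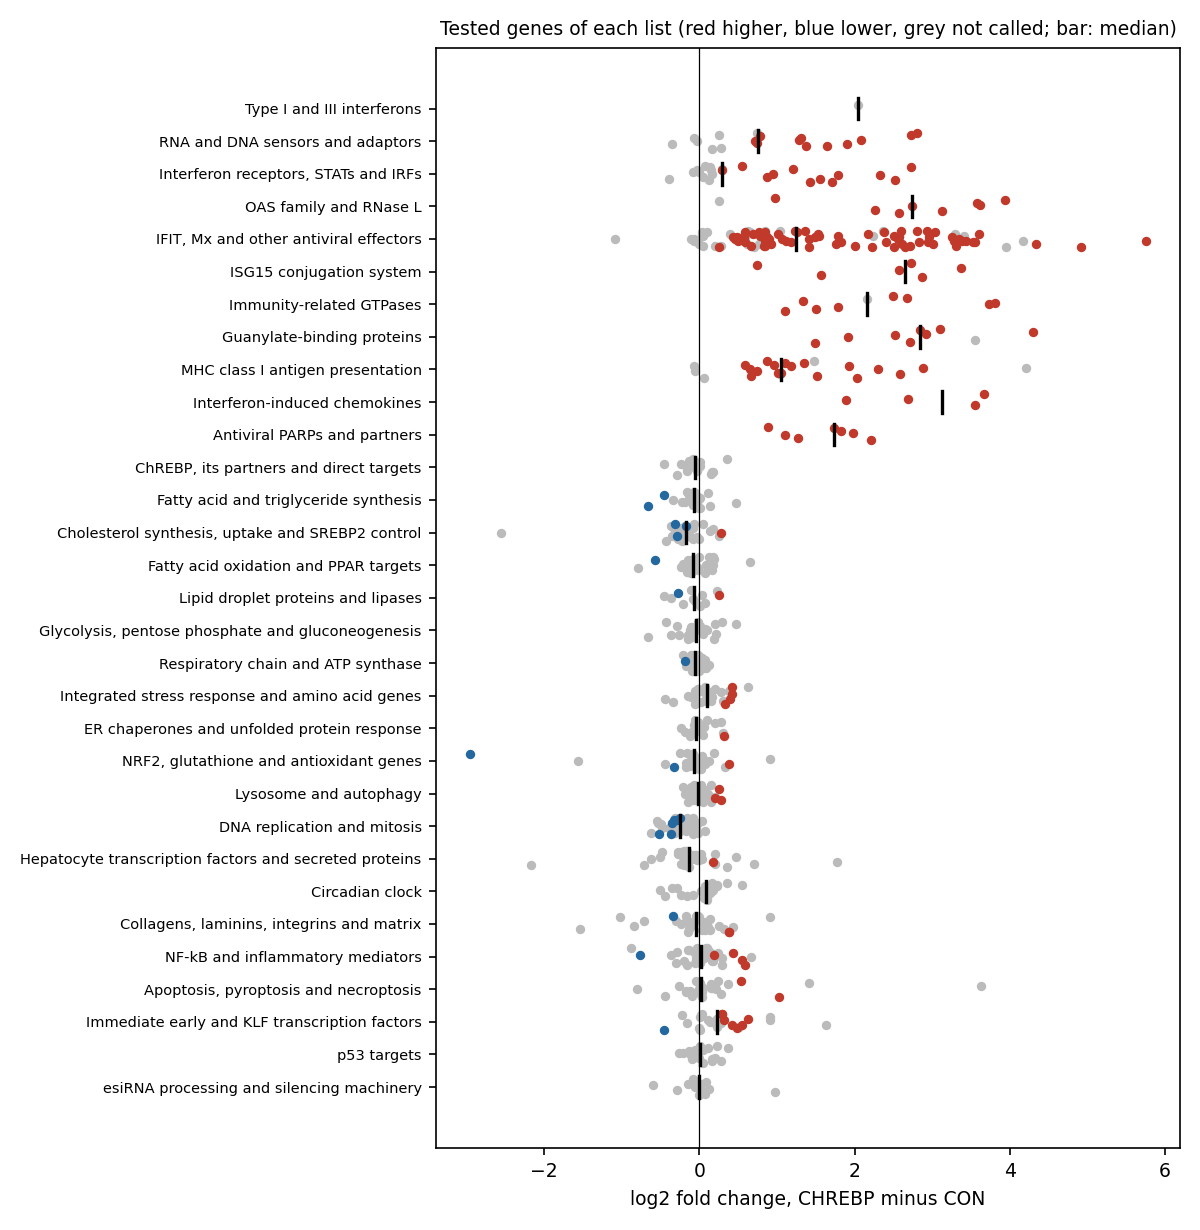
Each point is a tested gene of the list named on the vertical axis, placed by its log2 fold change (CHREBP minus CON), red where higher, blue where lower and grey where not called, with a bar at the median of the list. The interferon lists lie mostly to the right of 0 (median 1.41 over their 205 genes), and the medians of the 20 other lists lie between -0.25 and 0.23.

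The sequences before the transcription starts of 4 of the largest rises and of *Cybb* are shown because they hold the letters of the interferon-stimulated response element. They were taken from RefSeq promoters of GRCm38.p6, and each gives the 150 bases before the annotated start on the strand of the gene, 5′ to 3′. The RefSeq start used for *Cybb* lies inside the span that GENCODE gives the gene, downstream of its outermost start. Capitals mark GAAANNGAAA or its reverse complement TTTCNNTTTC.
Oas3, chr5:120777660-120777809, minus strand: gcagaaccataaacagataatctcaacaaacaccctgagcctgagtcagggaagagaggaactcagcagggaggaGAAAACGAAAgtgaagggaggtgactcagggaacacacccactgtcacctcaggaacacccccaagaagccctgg
Rsad2, chr12:26456453-26456602, minus strand: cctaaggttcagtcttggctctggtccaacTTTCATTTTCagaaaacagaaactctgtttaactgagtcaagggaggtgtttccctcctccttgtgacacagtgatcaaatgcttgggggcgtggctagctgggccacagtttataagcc
Oas1a, chr5:120907526-120907675, minus strand: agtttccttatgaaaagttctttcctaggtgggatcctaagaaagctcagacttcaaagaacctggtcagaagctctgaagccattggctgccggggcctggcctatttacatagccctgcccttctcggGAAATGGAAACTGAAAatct
Trim30a, chr7:104465194-104465343, minus strand: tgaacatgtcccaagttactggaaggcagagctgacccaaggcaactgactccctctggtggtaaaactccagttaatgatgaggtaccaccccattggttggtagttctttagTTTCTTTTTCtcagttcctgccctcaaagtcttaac
Cybb, chrX:9469325-9469474, minus strand: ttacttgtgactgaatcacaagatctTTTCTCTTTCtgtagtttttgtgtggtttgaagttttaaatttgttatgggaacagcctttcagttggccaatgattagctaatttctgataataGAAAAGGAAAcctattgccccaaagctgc

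The element stood 75 bases before the start of *Oas3*, 120 before that of *Rsad2* and 36 before that of *Trim30a*, counted to its first base. *Oas1a* had 2 copies that shared bases, at 20 and 14 bases, and *Cybb* had 2 copies in this stretch, at 124 and 29 bases. Promoter windows of 250 bases before to 50 after a start were on hand for 116 of the 148 higher list genes, with 150 windows, and 39.3% of these windows held the element on either strand. Its share was 5.18% of the 251 windows of the genes higher outside the lists, 5.15% of the 97 windows of the lower genes, 2.56% of the windows of tested genes that were not called and 3.44% of all 32851 windows. The E-box CACGTG, which is read the same on both strands and is part of the paired site that ChREBP binds, was held by 3.33%, 8.37% and 12.4% of the windows of the same 3 sets of DEGs, beside 10.1% of those of tested genes that were not called and 7.15% of all windows. Among the named genes with a window, 6 of 6 rises inside the lists held the interferon-stimulated response element. Outside the lists it was held by 1 of 9 rises, *Cybb*, and by 1 of 6 falls, *Adgrl3*. These matches are descriptions of letters and not of binding.

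Outside the interferon lists, the 10 largest rises among genes averaging 50 or more normalized counts ran from 1.15 to 2.74 on the log2 scale. *Sftpd* (chr14:41172214-41185149) encodes surfactant protein D, a secreted lectin of innate defense. It had normalized counts of 6.37, 22.6, 22.6 and 4.71 in CON and of 131, 109, 83.8 and 69.5 in CHREBP, with no overlap (log2 fold change 2.74, SE 0.32, *Padj* = 8.66e-14). *Ifi202b* (chr1:173962568-173982744) belongs to the interferon-activated p200 family, although it was not in the lists, and its closest paralogs may share its reads. It had normalized counts of 304, 1127, 1279.7 and 603 in CON and of 5848, 3040.4, 2946 and 3210.0 in CHREBP (2.18, SE 0.38). *Cybb* (chrX:9435252-9487771), the catalytic subunit of the phagocyte NADPH oxidase, had 30.0, 46.6, 40.1 and 42.4 in CON and 209.7, 111, 116 and 80.7 in CHREBP (1.70, SE 0.47, *Padj* = 0.0119). The *Cybb* call was lost without CHREBP replicate 1, at a log2 fold change of 1.37 (*Padj* = 0.139).

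*AW112010*, annotated as a long intergenic noncoding RNA and known from activated immune cells, had 652, 1104, 1104 and 956 normalized counts in CON and 4047, 2452, 2387 and 2004 in CHREBP (log2 fold change 1.51, SE 0.28). *Nampt* encodes the rate-limiting enzyme of NAD salvage. It had 234, 421, 428 and 395 in CON and 1109, 783, 711 and 746 in CHREBP (1.18, SE 0.21, *Padj* = 3.84e-06). *Ano2*, which encodes a calcium-activated chloride channel, had 277, 418, 444 and 441 in CON and 1119, 854, 713 and 815 in CHREBP (1.15, SE 0.14, *Padj* = 3.51e-13). In each of these 3 genes CON replicate 1 was the lowest CON library and CHREBP replicate 1 the highest CHREBP library, as for *Oas3*, *Rsad2* and *Cxcl10*. *Hap1*, which encodes the huntingtin-associated protein of vesicle transport, rose from 27.3, 59.6, 77.7 and 37.7 to 287, 206, 139.9 and 191 (2.02, SE 0.34). The remaining 3 were *Gm20559* (1.31, SE 0.35), *Tmem106a* (1.22, SE 0.28) and *Enpp4* (1.19, SE 0.31), and none of the 10 overlapped between the groups, which the rule for naming them required. With CON replicate 1 and CHREBP replicate 1 both left out, *Cybb*, *Gm20559* and *Enpp4* were no longer called, at 1.25, 0.91 and 0.88 on the log2 scale, and the other 7 were.

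**Figure D3:**
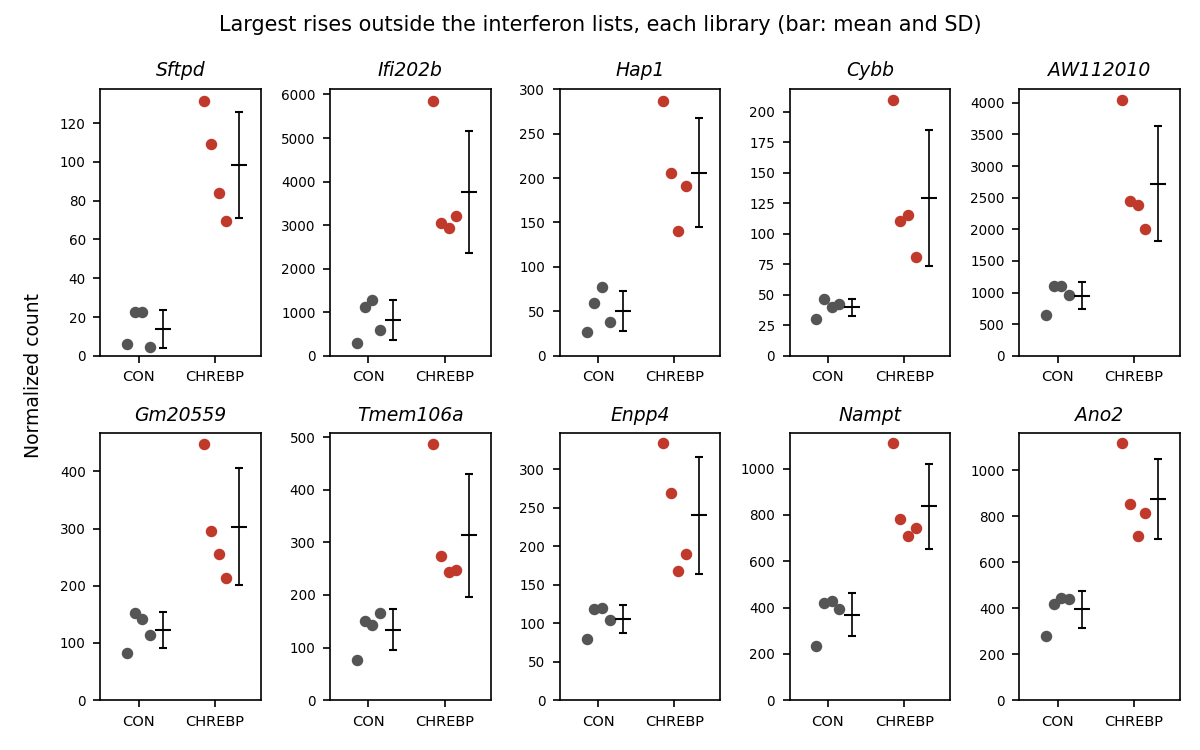
Normalized counts (vertical axes from 0) are plotted for each CON and CHREBP library, in replicate order from left to right, for the 10 largest rises outside the interferon lists, with the group mean and SD as a bar. The 2 groups do not overlap in any of the 10 genes, and CHREBP replicate 1 is the highest library in each.

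The lists of growth, stress and inflammatory genes held smaller differences. Their counts, and those of the metabolic lists, stand beside 1.61% higher and 0.782% lower among all genes tested outside the interferon lists. Of 26 immediate early and KLF genes, 7 were higher and 1 was lower, with a median log2 fold change of 0.23. *Myc*, a driver of growth, had 2354, 2554, 2664 and 2498 normalized counts in CON and 3119, 3032, 3013 and 3146 in CHREBP (0.29, SE 0.06, *Padj* = 1.32e-04). *Atf3*, a stress-induced repressor, had 525, 496, 546 and 564 in CON and 1041, 725, 674 and 677 in CHREBP (0.55, SE 0.13). *Dusp1* (0.42, SE 0.10), a phosphatase that switches off MAP kinases, and *Egr1* (0.48, SE 0.13) were also higher, with *Fosl2*, *Fos* and *Dusp5*. The lower gene was *Klf15*, a factor of amino acid and glucose metabolism (-0.45, SE 0.15). The *Myc*, *Atf3*, *Dusp1* and *Egr1* calls held whichever single library was left out, and *Atf3* (0.37) and *Egr1* (0.47) lost them with CON replicate 1 and CHREBP replicate 1 both left out.

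Integrated stress response genes were higher for 4 of 30 and lower for 0. *Cebpb*, a transcription factor of acute phase and stress genes, had 1382, 1505, 1598 and 1531 normalized counts in CON and 1642, 2124, 1834 and 1927 in CHREBP (0.32, SE 0.07, *Padj* = 8.23e-04). *Trib3* (0.42, SE 0.12), *Ddit3* (0.43, SE 0.14), which encodes CHOP, and *Atf5* (0.39, SE 0.13) were the others, while *Atf4* itself was not called (0.15, SE 0.07, *Padj* = 0.277). The *Cebpb* call held under each omission, whereas *Trib3* was lost without CON replicate 1 or 2 or CHREBP replicate 1 or 3 (0.34 to 0.40), *Ddit3* without CON replicate 2 or 4 or CHREBP replicate 1, 2 or 3 (0.36 to 0.43) and *Atf5* without CON replicate 1, 2 or 4 or CHREBP replicate 1, 3 or 4 (0.34 to 0.41). Among 24 chaperone and unfolded protein response genes, *Syvn1*, an ubiquitin ligase of ER-associated degradation, was the 1 gene called (0.32, SE 0.07, *Padj* = 7.30e-04), and the chaperone gene *Hspa5* gave -0.06 (SE 0.09).

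Genes of NF-kB and inflammation were higher for 4 of 36 and lower for 1. *Csf1*, the growth factor of macrophages, which also stands in the interferon lists, had 783, 892, 967 and 937 normalized counts in CON and 1502, 1279.9, 1299.8 and 1299 in CHREBP (0.59, SE 0.08, *Padj* = 4.04e-10). *Saa3* (0.54, SE 0.15), an acute phase protein, *Rela* (0.18, SE 0.06), the p65 subunit, and *Lif* (0.43, SE 0.15) were the others. *Saa3* was lost without CON replicate 3 (0.47) or CHREBP replicate 1 (0.42), and *Rela* without CON replicate 1 or 2 or CHREBP replicate 1, 2 or 4 (0.16 to 0.18). Of 29 cell death genes 2 were higher and 0 lower. *Mlkl*, the effector of necroptosis, had 116, 155, 137 and 145 in CON and 372, 284, 244 and 228 in CHREBP (1.02, SE 0.17, *Padj* = 2.11e-07). There were 0 DEGs (DESeq2 or edgeR) among 20 p53 targets, 20 clock genes and 13 genes of the silencing machinery, of which 4, 1 and 1 had an unadjusted p under 0.05.

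Lipid genes were called in small numbers, mostly as falls. *Scd1* and *Scd2* encode stearoyl-CoA desaturases, which turn saturated into monounsaturated fatty acids, and are close paralogs that lie near each other on chromosome 19. *Scd2* had 8496, 7895, 7588 and 7771 normalized counts in CON and 5090.2, 6148, 6061 and 5800.0 in CHREBP, with no overlap (log2 fold change -0.46, SE 0.08, *Padj* = 6.30e-07). *Scd1* (chr19:44394455-44407879) had 164, 156, 205 and 206 in CON and 109, 131, 108 and 111 in CHREBP (-0.67, SE 0.15, *Padj* = 0.00106). They were the 2 genes called of 22 tested for fatty acid and triglyceride synthesis, and both stayed called whichever library was left out. The other genes of that list gave no call, with *Fasn*, the fatty acid synthase, at -0.09 (SE 0.08), *Acaca*, the acetyl-CoA carboxylase, at -0.16 (SE 0.11) and *Srebf1* at -0.07 (SE 0.10).

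Of 30 cholesterol genes tested, 3 were lower, 1 was higher and 25 had a log2 fold change below 0, with a median of -0.18. *Hmgcs1*, which makes hydroxymethylglutaryl-CoA for the mevalonate pathway, had 676, 664, 637 and 752 normalized counts in CON and 565, 523, 603 and 534 in CHREBP (-0.29, SE 0.08). *Msmo1*, a sterol demethylase, gave -0.31 (SE 0.09) and *Ebp*, a sterol isomerase, gave -0.17 (SE 0.06). The higher gene was *Npc2*, which moves cholesterol out of the lysosome (0.28, SE 0.08). Along with *Npc2*, the lysosomal genes *Lamp2* (0.20, SE 0.05) and *Lipa* (0.25, SE 0.09), the acid lipase, were higher among 34 lysosome and autophagy genes, with 0 lower. *G0s2*, an inhibitor of adipose triglyceride lipase that overlaps *Lamb3* on the other strand, was lower (-0.28, SE 0.08). Fatty acid oxidation genes were lower for 1 of 27 and higher for 0, glycolysis held 0 DEGs among 30 tested (DESeq2; 3 had an unadjusted p under 0.05, and edgeR called 0), and the respiratory chain 1 among 40, *Ndufa6* (-0.18, SE 0.06). Calls among these small differences were lost when single libraries were left out, while the log2 fold changes kept their sign. *Hmgcs1* was lost without CON replicate 4 or CHREBP replicate 2 or 4 (-0.27 to -0.24), *Msmo1* without replicate 2 of either group (-0.29 and -0.26), *Npc2* without CHREBP replicate 1 or 4 (0.25 each) and *G0s2* without CON replicate 1 (-0.22) or CHREBP replicate 2 (-0.25). *Ebp* (-0.17 to -0.14), *Ndufa6* (-0.19 to -0.15) and *Lipa* (0.19 to 0.27) were each lost under 6 of the 8 omissions. The omissions that kept the call were those of CON replicate 2 and CHREBP replicate 3 for *Ebp*, CON replicate 2 and CHREBP replicate 4 for *Ndufa6*, and CHREBP replicates 2 and 3 for *Lipa*. *Lamp2* was lost under none of them, but was lost (0.18) with CON replicate 1 and CHREBP replicate 1 both left out.

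Genes of DNA replication and mitosis were lower for 6 of 36 and higher for 0. The log2 fold change was below 0 for 34 of the 36, and the median was -0.25. *Rrm2*, the small subunit of ribonucleotide reductase, had 857, 814, 809 and 837 normalized counts in CON and 535, 553, 555 and 660.4 in CHREBP (-0.53, SE 0.10, *Padj* = 2.73e-05). *Tyms*, the thymidylate synthase, gave -0.36 (SE 0.10), *Aurkb*, a mitotic kinase, gave -0.36 (SE 0.11) and *Ccnd1*, which encodes cyclin D1, gave -0.25 (SE 0.06). *Kif23* and *Ccnb2* were the others. *Mcm2*, a subunit of the replicative helicase, was not called (-0.02, SE 0.11). Of 32 hepatocyte genes 1 was higher and 0 were lower, and the median was -0.14. Antioxidant genes gave 1 higher, *Keap1* (0.38, SE 0.10), the adaptor that keeps Nrf2 low, and 2 lower of 30, *Gsta4* (-0.33, SE 0.11) and *Gsta1*, whose normalized counts were low at 11.8, 14.4, 5.85 and 7.06 in CON and 3.36, 0, 0 and 2.24 in CHREBP. Matrix genes gave 2 higher, *Itgav* and *Loxl2*, and 1 lower, *Lamb3*, of 37. The *Rrm2*, *Ccnd1* and *Keap1* calls held whichever single library was left out, and *Ccnd1* (-0.17) and *Keap1* (0.34) lost them with CON replicate 1 and CHREBP replicate 1 both left out. *Tyms* was lost without CON replicate 3 or 4 or CHREBP replicate 1 or 2 (-0.34 to -0.30), and *Aurkb* without CON replicate 2 or 4 or CHREBP replicate 1 or 2 (-0.36 to -0.31). *Gsta1* was lost without CON replicate 2 or CHREBP replicate 2 or 3 (-2.69 to -2.49), and *Itgav* without CON replicate 2 or 3 or CHREBP replicate 2 or 4 (0.30 to 0.37). *Loxl2* (0.32 to 0.40) was lost under 6 of the 8 omissions, all except those of CON replicate 1 and CHREBP replicate 3. *Gsta4* (-0.36 to -0.25) and *Lamb3* (-0.36 to -0.27) were lost under 7, all except that of CHREBP replicate 1 for *Gsta4* and of CON replicate 4 for *Lamb3*.

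Described next are 9 of the 10 largest falls among genes averaging 50 or more normalized counts, *Scd1* among them. *Ccl9*, a chemokine for myeloid cells, had 169, 184, 201 and 209 normalized counts in CON and 109, 91.6, 119 and 128 in CHREBP (-0.77, SE 0.15, *Padj* = 4.09e-05). *Sult1d1*, a sulfotransferase, had 172, 153, 132 and 151 in CON and 57.2, 105, 111 and 103 in CHREBP (-0.68, SE 0.18, *Padj* = 0.00858). In *Sult1d1* CHREBP replicate 1 lay well below the other 3 CHREBP libraries, which was not so in *Ccl9*. *Ccl9*, *Sult1d1* and *Scd1* stayed called whichever library was left out. *Hr*, a corepressor of nuclear receptors, had 125, 112, 124 and 155 in CON and 61.7, 96.0, 84.6 and 83.0 in CHREBP (-0.65, SE 0.18), and its call was lost without CON replicate 4 (-0.55) or CHREBP replicate 1 (-0.54). Without the same 2 libraries the call of *Padi2*, which encodes a protein deiminase, was lost as well (-0.57, SE 0.17, then -0.53 and -0.49). *Arhgap36* (-0.58, SE 0.16) was lost without CON replicate 1 (-0.53) or CHREBP replicate 1 (-0.52). *Adgrl3* (-0.75, SE 0.22), a neuronal adhesion receptor, lost its call without CON replicate 2 or 4 or CHREBP replicate 1 or 3 (-0.73 to -0.67). *Zfp354a* (-0.77, SE 0.25), a zinc finger gene, lost it without CON replicate 1, 3 or 4 or CHREBP replicate 1 or 4 (-0.79 to -0.65). *Pcyt1b* (-0.54, SE 0.18), an enzyme of phosphatidylcholine synthesis, lost it without CON replicate 1, 3 or 4 or CHREBP replicate 1, 2 or 3 (-0.59 to -0.40). With CON replicate 1 and CHREBP replicate 1 both left out, *Ccl9* and *Scd1* were still called and the other 7 of these genes were not. The groups did not overlap in any of the 9, which the rule for naming them required.

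**Figure D4:**
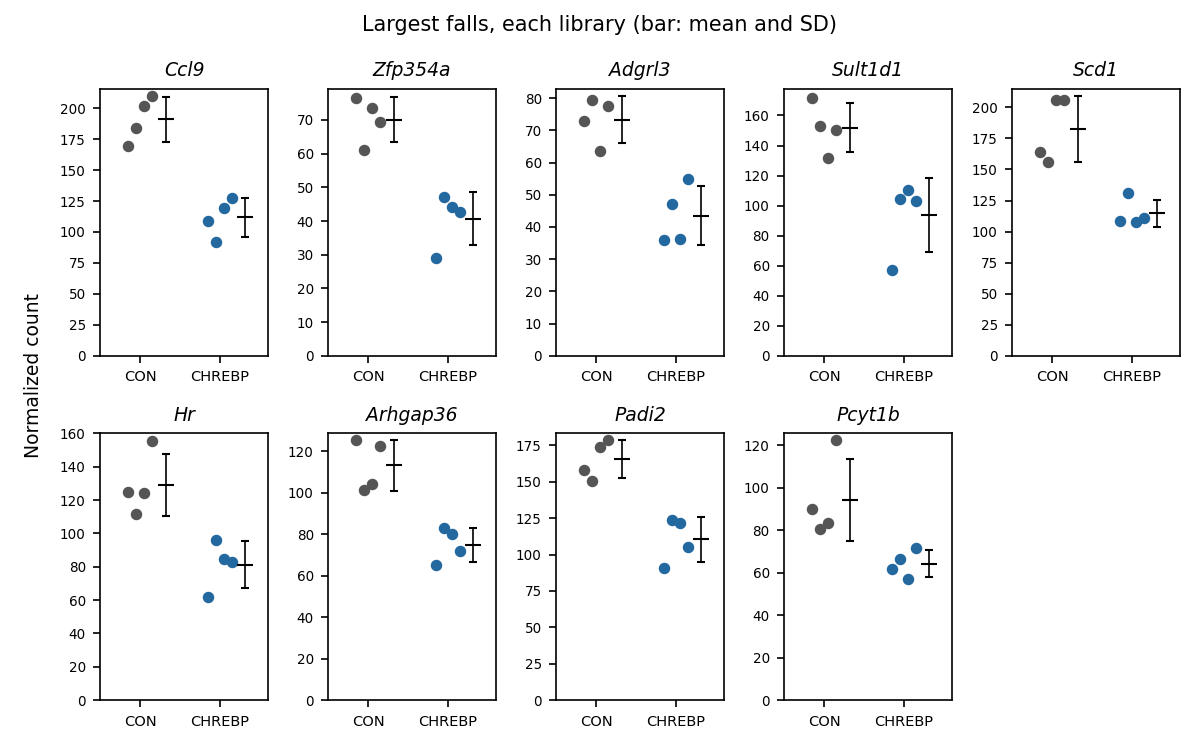
Normalized counts (vertical axes from 0) are plotted for each CON and CHREBP library, in replicate order from left to right, for 9 of the 10 largest falls, with the group mean and SD as a bar. Every CHREBP library lies below every CON library, and CHREBP replicate 1 is far below the other 3 in *Sult1d1*, at 57.2.

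How far the genes outside the lists moved with the interferon genes could be measured only in part. An interferon level, the mean of log2(normalized count + 1) over list genes with a mean of at least 5, was 5.84 to 7.02 in CON and 7.95 to 8.70 in CHREBP, and 92.8% of its variance over the 16 esiRNA libraries lay between groups. With this level as a covariate, 7 genes were called higher and 7 lower, and 0 of them were among the 475 DEGs. List genes make up this level, so the loss of their own calls was largely set by the fit. The median SE of the DEGs was then 0.24 in place of 0.14. The direction was retained by 100 of the 107 lower genes, with a median log2 fold change of -0.25, and by 168 of the 220 higher genes outside the lists. *Scd1* stood at -0.55, *Ccl9* at -0.74, *Scd2* at -0.09 and *Rrm2* at -0.21, none of them called. The part of the interferon response in these differences was not tested.

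The genes called in CHREBP against CON were also measured in the 8 other esiRNA libraries. These libraries are not part of that contrast, but they were in its fit and shared its estimate of the spread. BMAL1 cells received 100 nM of esiRNA against *Bmal1*, which encodes a core factor of the circadian clock, and BOTH cells received the *Bmal1* and *Chrebp* esiRNAs at 200 nM in all, again with palmitate and in columns 2 and 3. In BOTH against BMAL1 the amount of esiRNA was the higher one in the cells with *Chrebp* esiRNA, the opposite of CHREBP against CON, while the columns differed in the same way. In that comparison 882 genes were higher (6.35% of those tested) and 566 were lower (4.08%; 297 with these 2 groups fitted alone), and *Mlxipl* was among the lower ones (log2 fold change -1.04, *Padj* = 0.0121). The interferon lists held 2.99% to 4.63% of the counts in BOTH and 0.925% to 0.973% in BMAL1. The unaligned share was 24.9% to 26.3% in BOTH and 26.6% to 27.4% in BMAL1, without overlap, and its part in these counts was not tested.

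All 148 list genes that were higher in CHREBP were also called higher in BOTH, with a median log2 fold change of 3.20 beside 1.81. *Ifnb1*, which was not called in CHREBP, had normalized counts of 10.1, 33.1, 14.0 and 18.4 in BOTH and 0 in all 4 BMAL1 libraries and was called higher. Of the 220 genes higher outside the lists, 203 lay above 0 (92.3%, beside 47.2% of all tested genes) and 169 were called higher. Of the 107 lower genes, 95 lay below 0 (88.8%, beside 52.8% of all tested genes), 50 were called lower and 0 higher. With BOTH and BMAL1 fitted alone, the counts were 148, 159 and 37. The genes counted still came from the fit of all 16 esiRNA libraries, so their selection was not independent of BOTH and BMAL1. Among the lipid and growth genes, *Scd2* gave -0.63 (*Padj* = 2.43e-14) and *Rrm2* gave -0.52 (*Padj* = 2.39e-05). *Scd1* (-0.38, *Padj* = 0.121), *Hmgcs1* (-0.16, *Padj* = 0.309), *Msmo1* (-0.07, *Padj* = 0.769) and *Ccnd1* (0.01, *Padj* = 0.982) were not called there. *Sftpd* (3.68), *Nampt* (2.25) and *Ano2* (1.87) were called higher, whereas *Itgav* (-0.02, *Padj* = 0.962) was not called.

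The interaction term, which is the log2 fold change of BOTH against BMAL1 minus that of CHREBP against CON, was called for 204 genes (1.47%). The amount of esiRNA rose from 100 to 200 nM in the first of these comparisons and fell from 200 to 100 nM in the second. The library names also put CON and CHREBP in rows A to D and BMAL1 and BOTH in rows E to H. *Bmal1* esiRNA, the amount of esiRNA and the row therefore cannot be told apart in this term. The 204 genes included 83 of the 148 list genes, 37 of the 220 and 4 of the 107. This number was 112 without CON replicate 2, 104 without CON replicate 3, 122 without BMAL1 replicate 2, and 129, 121 and 123 without CHREBP replicate 2, 3 and 4. *Ccl9* was one of the 4, at -0.77 in CHREBP against CON and 0.38 in BOTH against BMAL1 (interaction 1.16, *Padj* = 3.12e-04).

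**Figure D5:**
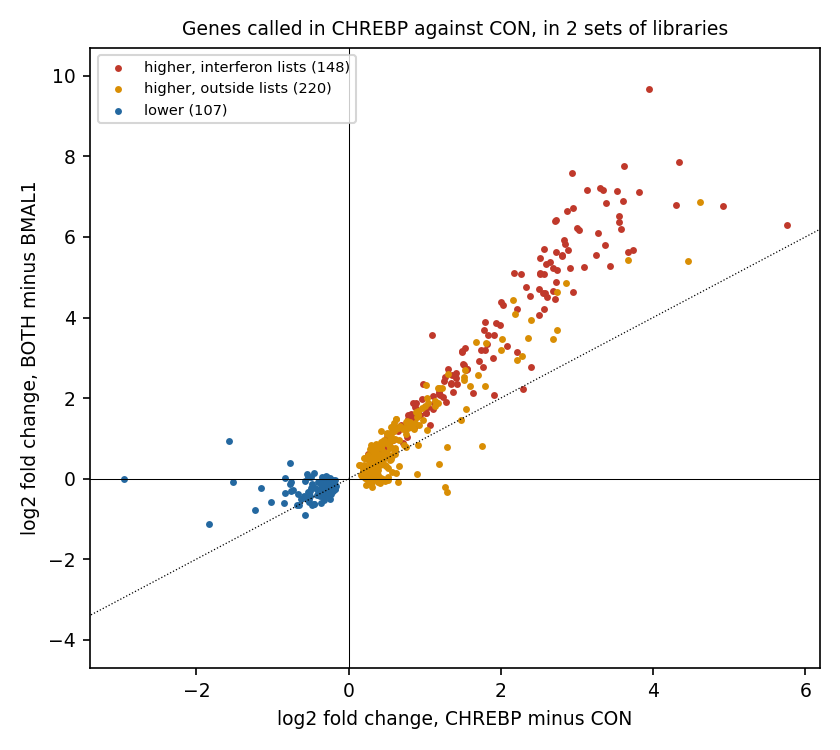
Each point is a gene called in CHREBP against CON, placed by its log2 fold change there (horizontal axis) and in BOTH against BMAL1 (vertical axis), with the dotted line marking equal values. All 148 red points (interferon lists) lie above 0 on the vertical axis, and 95 of the 107 blue points (lower genes) lie below 0 on the vertical axis.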

How the data were processed

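RNA of AML-12 cells in 6 groups of 4 libraries was measured by BRB-seq. The authors demultiplexed and aligned the reads with BRB-seq tools and STAR to mm10 and deposited raw counts per gene from HTSeq (featureCounts is also listed in the submitters' processing notes). Strand use, treatment of molecular identifiers, tool versions and the annotation release are not given in the sources used here. The table held 55487 genes and 5 summary lines, which were left out of totals and tests and gave the unaligned share of 25.8% to 27.5% in CON and CHREBP.

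Genes whose counts in the 16 esiRNA libraries added up to 25 or more were fitted with DESeq2 1.42.0 (R 4.3.3, Wald test, Benjamini-Hochberg adjustment, *Padj* under 0.1), with the 4 groups sharing 1 estimate of the spread. Totals, *Mlxipl* and unaligned shares were also compared by exact 2-sided permutation tests. The comparison, its members and the gene lists were chosen with earlier results of these data known. Named genes were *Mlxipl*, the 8 largest rises inside and the 10 outside the interferon lists and the 10 largest falls (called, averaging 50 or more normalized counts, no overlap), *Txnip*, *Pklr* and *Klf10*, and up to 4 called genes per list by *Padj*. A few genes that this rule selects are not reported here. Other genes, such as *Ifnar1*, *Atf4*, *Fasn* and *Klf15*, were named after their values were seen. Marker lists gave 0 calls except for *Krt7*, lower among the 6 tested cholangiocyte markers, whose summed level was 1812 to 1917 CPM in CON and 1753 to 1946 CPM in CHREBP. Coordinates are from GENCODE M21 (GRCm38), matched for 13877 of the 13883 tested genes.

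At the depth of these libraries 3 counts corresponded to 0.267 to 0.461 CPM. Replicates of CON and CHREBP differed by more than sampling noise (chi-square per degree of freedom 2.41 to 6.10 over 12 pairs). Replicate numbers did not pair the groups. Alternatives were edgeR 4.0.16, other filters, scalings, thresholds and sets of libraries, a replicate block, an interferon covariate, and each library left out. Leaving out CON replicate 1 and CHREBP replicate 1 together was chosen after seeing the data.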

Additional observations from a re-analysis of the deposited data

Results flagged for a closer look

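Single libraries stood apart from the other 3 of their group, by Dixon's test of the gap against the range, in 26 of 198 group values of the named genes, where chance picks out about 1 group in 20. CHREBP replicate 1, which held the largest share of interferon counts of its group, was the library that stood apart in 17 of them, 13 of which are genes of the interferon lists and so not independent of each other. Its normalized count was above that of the other CHREBP libraries in *Ifi202b* (5848, the others 2946 to 3210.0), *Tmem106a* (487, the others 243 to 275), *Trafd1* (829.9, the others 480.2 to 537), *Nmi* (473, the others 303 to 322), *Irf1* (1967, the others 1318 to 1426) and *Oasl1* (1293, the others 586 to 694). It was also above them in *Oas1b* (385, the others 174 to 185), *Isg15* (67.3, the others 24.2 to 25.8), *Ube2l6* (1282, the others 635 to 680.5), *Irgm1* (6388, the others 4343 to 4570.0), *Tgtp1* (307, the others 142 to 159) and *H2-D1* (5515, the others 3699 to 3939). The same held for *B2m* (29496, the others 22782 to 23667), *Parp9* (1115, the others 595 to 664), *Csf1* (1502, the others 1279.9 to 1299.8) and *Atf3* (1041, the others 674 to 725). It was below them in *Sult1d1* (57.2, the others 103 to 111). CON replicate 1 stood apart in *Nampt* (234, the others 395 to 428), *Ano2* (277, the others 418 to 444), *G0s2* (629, the others 534 to 546) and *Gsta4* (800.4, the others 647 to 662), and CON replicate 3 in *Gbp6* (6.68, the others 2.35 to 2.74) and *Egr1* (234, the others 191 to 198). CHREBP replicate 2 stood apart in *Scd1* (131, the others 108 to 111) and *Npc2* (3586, the others 4298 to 4414), and CHREBP replicate 4 in *Rrm2* (660.4, the others 535 to 555).

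The log2 fold changes of BOTH against BMAL1 and of CHREBP against CON differed for 38 of the named genes, by the interaction term (DESeq2, *Padj* under 0.1). The amount of esiRNA changed in opposite directions in these comparisons, and their libraries stood in different rows. *Bmal1* esiRNA, the amount of esiRNA and the row therefore cannot be told apart here. *Oas3* had normalized counts of 0, 0, 0.971 and 0.928 in BMAL1, so the size of its fitted difference (5.74) is not determined. Given as the first log2 fold change minus the second, the difference was also over 2 in *Trim30a* (3.61), *Rsad2* (3.30), *Gbp7* (2.98), *Ifitm3* (2.97), *Cxcl10* (2.83), *Oas1b* (2.82), *Gbp4* (2.59), *Tgtp1* (2.55), *Oasl1* (2.43), *Gbp2* (2.32), *Irgm2* (2.10) and *Psmb9* (2.03). It lay between 1 and 2 in *Cxcl9* (1.98), *Ifi202b* (1.90), *Parp12* (1.82), *Ifih1* (1.67), *Parp9* (1.52), *Dtx3l* (1.47), *Ifi35* (1.42), *Ifi47* (1.34), *Stat2* (1.22), *Nampt* (1.07) and *Irgm1* (1.04). It was below 1 in *Psmb10* (0.99), *Mlkl* (0.99), *Nmi* (0.86), *Mitd1* (0.80), *Slfn2* (0.76), *Ano2* (0.72), *Shisa5* (0.71), *Mov10* (0.70), *Zc3hav1* (0.63), *Irf1* (0.62), *H2-D1* (0.61), *Csf1* (0.60) and *B2m* (0.57). In *Ccl9* (1.16) the log2 fold change was -0.77 in CHREBP against CON and 0.38 in BOTH against BMAL1, whereas both were above 0 in each of the other 37 genes. Over all genes, the 204 interactions fell to between 104 and 129 when CON replicate 2 or 3, CHREBP replicate 2, 3 or 4 or BMAL1 replicate 2 was left out.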

How the results depend on the processing

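The 368 higher and 107 lower genes stayed within 1.5 times of these counts with edgeR (319 and 75), TMM factors (369 and 104), size factors without the interferon lists (375 and 100), all 24 libraries (391 and 147), no filter (370 and 110), at least 10 counts in 4 libraries (368 and 115), filtering off (362 and 98) and *Padj* under 0.05 (313 and 73). With CHREBP and CON fitted alone, 184 genes were lower, 106 of them shared with the 107, and BOTH against BMAL1 fitted alone gave 297. With the interferon level as a covariate, 7 genes were higher, all 7 outside the lists, 0 list genes were, and 7 were lower. List genes make up that level, so the loss of their own calls was largely set by the fit. Without CON replicate 1 and CHREBP replicate 1, chosen after seeing the data, 206 genes were higher (200 shared with the 368), 88 outside the lists (82 shared) and 118 inside (118 shared), and 41 were lower (28 shared).

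Leaving out 1 library at a time gave 266 to 340 higher genes, 136 to 193 outside the lists, 130 to 147 inside, and 56 to 99 lower. BOTH against BMAL1 gave 747 to 973 higher and 390 to 741 lower, and the interaction 104 to 291. The *Mlxipl* log2 fold change ran from -0.60 to -0.33, the difference in total count from -1719319 to -144411 and that in unaligned share from -0.818 to -0.521 percentage points. Among the called genes that the naming rule selected, 1 of 45 in the interferon lists and 26 of 50 others lost a call under at least 1 omission. Genes named outside the rule, such as *Klf15*, *Lif*, *Fos* and *Kif23*, were not checked in this way.

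The covariate turned the direction of 17 named genes, of which 0 were called with it: *Oas3* (-0.22), *Iigp1* (-0.79), *Rsad2* (-0.25), *Trim30a* (-0.77), *Ifi202b* (-0.16), *Cybb* (-0.30), *AW112010* (-0.014), *Gm20559* (-0.36), *Tmem106a* (-0.28), *Enpp4* (-0.39), *Nampt* (-0.059), *Oas1b* (-0.14), *Uba7* (-0.051), *Gbp4* (-0.47), *Gbp7* (-0.93), *Parp12* (-0.0012) and *Ccnd1* (0.040). Because 92.8% of the variance of the interferon level lay between groups, this fit separates level and group poorly. The list genes among the 17 were also adjusted for a level that list genes make up.

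The replicate block gave 348 higher genes (201 outside the lists, 147 inside) and 98 lower, 818 and 527 for BOTH against BMAL1, 147 for the interaction and -0.45 for *Mlxipl*. Same-numbered CON and CHREBP libraries correlated at -0.186, 0.033, -0.038 and 0.068, so the numbers did not pair them, and 9 genes selected by the rule lost their calls, *Iigp1*, *Zfp354a*, *Pcyt1b*, *Ebp*, *Ndufa6*, *Ddit3*, *Atf5*, *Loxl2* and *Lamb3*. With edgeR, the calls of 10 were lost, namely *Atf5*, *Ebp*, *Gsta4*, *Lamb3*, *Lipa*, *Loxl2*, *Ndufa6*, *Pcyt1b*, *Rela* and *Zfp354a*, and *Padj* under 0.05 added *Ddit3* to these same genes. *Gsta4*, *Lamb3*, *Lipa* and *Pcyt1b* lost theirs with independent filtering off. *Lamb3* also lost its call with TMM factors, with all 24 libraries, with no filter and without the interferon lists in the size factors, *Pcyt1b* with no filter, *Gsta4* without the interferon lists in the size factors, and *Gsta1* with at least 10 counts in 4 libraries. Limits are the amount of esiRNA and the column, which cannot be told apart from the target, 4 libraries per group of unstated independence, unstated strand use, and a depth at which most interferon genes had no count.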
